A study of Mus musculus with 6 samples.

Results

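Basement membranes are thin sheets of matrix that surround each heart muscle cell and underlie the endothelium of vessels. Laminins, trimers of an alpha, a beta and a gamma chain, assemble at the cell surface into a network, nidogens link this network to collagen IV, and the heparan sulfate proteoglycans perlecan and agrin bind to it. Laminin with the *Lama2* chain predominates around muscle cells, where it binds dystroglycan and integrins, and laminins with the *Lama4* or *Lama5* chain are typical of vessel walls. The 10 genes described here were chosen by name: the laminin chains *Lama2*, *Lama4*, *Lama5*, *Lamb1*, *Lamb2* and *Lamc1*, the nidogens *Nid1* and *Nid2*, perlecan (*Hspg2*) and agrin (*Agrn*). They are 10 of the 17441 genes listed in at least 1 of 6 mouse heart libraries, all 10 were listed in every library, and all 10 were among the 13120 genes that passed the filter on low values and were tested.

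RNA was sequenced from heart tissue below the ligature, 3 days after surgery, in male mice that were 12 weeks old by their labels and had a C57BL/6 background by the methods. The groups were sham-operated WT mice (WT Sham), WT mice with the left anterior descending coronary artery tied off, which causes myocardial infarction (WT MI), and *Card9* knockout mice that also underwent it (*Card9* KO MI). Each group had 2 libraries, and no source used here says whether a library came from 1 animal or from pooled animals, so the p-values measure the spread between these samples, which may be technical. *Card9* KO Sham mice were not analysed here, so *Card9* KO MI against WT Sham joins genotype and infarction. Values are FPKM, fragment counts scaled to transcript length and library size. They can be compared between genes of a library, while comparisons between libraries depend in part on the scaling. The depth, estimated from the steps between low FPKM values, was 3160000 and 3010000 fragments for the sham group, 4020000 and 3920000 for WT MI, and 4290000 and 4110000 for *Card9* KO MI. The member with the fewest fragments was *Nid2* in WT Sham replicate 2, with an estimated 94.8 fragments and a counting error of 10.3%.

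The knocked-out gene *Card9* (NCBI gene 332579, mm9 chr2:26207696-26216438, minus strand), an adaptor of innate immune signalling, had 0.99 and 1.03 FPKM in the WT Sham libraries, 3.39 and 5.08 in the WT MI libraries and 9.85 and 6.94 in those labelled *Card9* KO MI. The libraries labelled *Card9* KO MI thus did not have less of its RNA and held the highest values (log2 fold change against WT MI 0.85, standard error (SE) 0.23, limma adjusted p = 0.11). FPKM covers the whole gene and does not show which exons were read. These 2 libraries are therefore named by their label and called the KO-labelled libraries, and every direction between them and the other groups rests on that label. Heart muscle genes were abundant in all 6 libraries: *Actc1*, cardiac actin, had an FPKM between 6905 and 10230.

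Log2 fold changes were tested with limma on log2(FPKM + 1), a scale that understates the change of low genes, with a call wherever the adjusted p was below 0.05. In WT MI against WT Sham, 6 of the 10 members were called higher, as were 27.7% of all genes tested, and 0 were called lower, as were 9.39% of all genes. At an unadjusted p below 0.05 limma counted 6 members as higher and 1 as lower, against 33.9% and 12.8% of all genes. In the KO-labelled libraries against WT MI, limma called 0 members higher and 0 lower, against 0.816% and 0.587% of all genes. At an unadjusted p below 0.05, 8 were higher and 1 was lower there, against 11.5% and 8.57% of all genes. In the KO-labelled libraries against WT Sham, 7 members were called higher and 2 lower, against 34.8% and 14.3% of all genes, with the same counts at an unadjusted p below 0.05 against 39.4% and 16.7%. The median log2 fold change of the 10 members was 0.50, 0.37 and 0.81 in these 3 comparisons, and that of all genes tested was 0.19, 0.04 and 0.24. With upper-quartile scaling, quantile normalization and rescaling without the 100 most abundant genes, the member median in WT MI against WT Sham was 0.29, 0.30 and 0.35, with 5 higher and 3 lower under each. The KO-labelled libraries against WT Sham then had member medians of 0.56, 0.64 and 0.64, with 6 higher and 2 lower under each, and 1 lower as deposited without WT Sham replicate 2, WT MI replicate 1 or 2 or *Card9* KO MI replicate 1. The comparisons share their libraries and are not independent of each other.

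**Figure D1:**
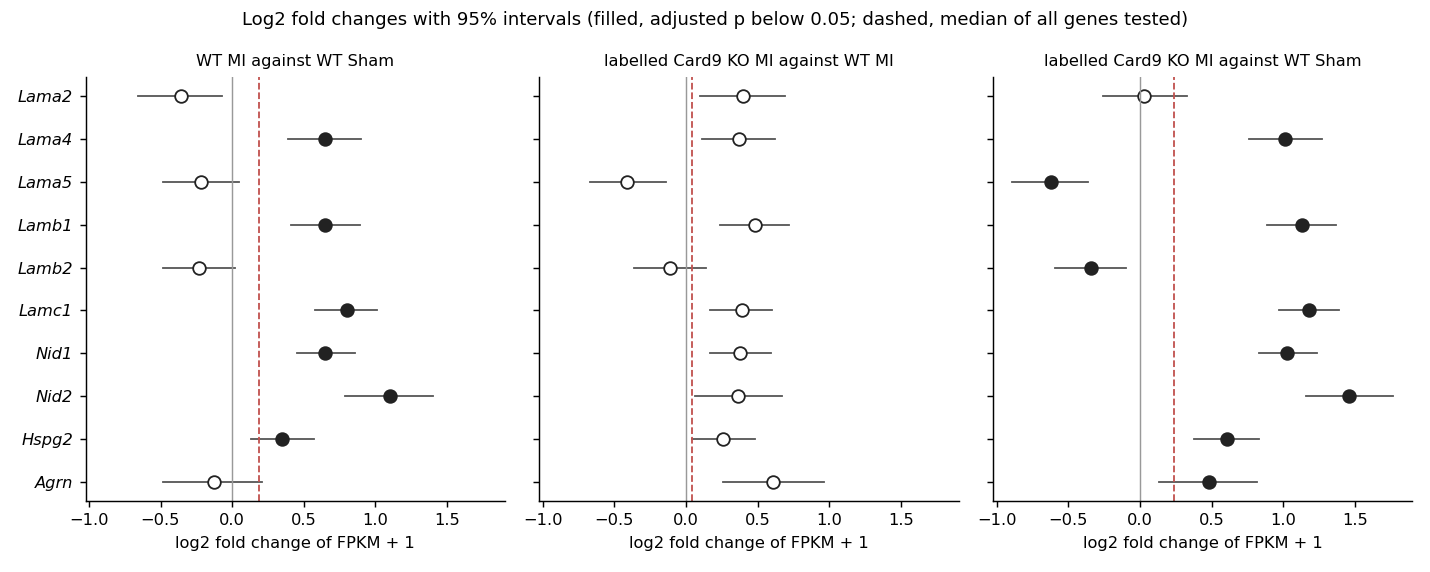
Log2 fold changes of FPKM + 1 with 95% intervals for the 10 members in the 3 comparisons, with filled points for an adjusted p below 0.05 and a dashed line at the median of all genes tested. *Nid2* had the highest point in both comparisons with WT Sham, at 1.10 and 1.46, and no point is filled in the comparison of the infarct groups.

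The medians of all genes against WT Sham depended on scaling. As deposited they were 0.19 and 0.24. They became 0.00 and 0.03 with upper-quartile scaling, −0.09 and −0.10 after quantile normalization, and 0.06 and 0.09 when libraries were rescaled without the 100 most abundant genes. Member changes no larger than the distance between the deposited and the quantile-normalized medians lie within this shift. As deposited, WT MI had 3637 genes higher and 1232 lower than WT Sham, against 2603 and 2159 with upper-quartile scaling, 2198 and 2447 after quantile normalization, and 2869 and 1830 without the 100 most abundant genes. The same splits for the KO-labelled libraries against WT Sham were 4569 and 1875, 3230 and 2884, 2755 and 3444, and 3642 and 2527. Counts of members or listed genes under another scaling are to be set against these splits, not against the shares as deposited. Summed FPKM was more concentrated in WT Sham, where its top 10 genes made up 16.1% and 16.4%, than in WT MI, with 10.6% in both libraries, or the KO-labelled libraries, with 8.99% and 10.1%.

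Among the alpha chains, *Lama4* (mm9 chr10:38685321-38829994, plus strand), a chain of vessel wall laminin, had 17.8 and 19.0 FPKM in the WT Sham libraries, 31.2 and 27.5 in the WT MI libraries and 38.0 and 38.1 in the KO-labelled libraries. WT Sham was lowest, the KO-labelled libraries were highest, and no groups overlapped. The gene rose in WT MI against WT Sham (log2 fold change 0.65, SE 0.11, limma adjusted p = 0.0033) and was higher still against WT Sham in the KO-labelled libraries (1.01, limma adjusted p = 0.00026). The step between the infarct groups was 0.37 (95% interval 0.11 to 0.62, limma adjusted p = 0.13) and did not pass the test.

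*Lama5* (mm9 chr2:179911078-179960564, minus strand), the other vessel wall chain, ran the opposite way, with an FPKM of 24.9 and 26.1 in the WT Sham libraries, 20.8 and 22.9 in the WT MI libraries and 15.5 and 17.0 in the KO-labelled libraries. The groups again did not overlap, with WT Sham highest. *Lama5* fell in the KO-labelled libraries against WT Sham (log2 fold change −0.62, SE 0.11, limma adjusted p = 0.003). Its log2 fold change in WT MI against WT Sham was −0.22 (limma adjusted p = 0.18), which did not pass the test as deposited but was called lower under each of the 3 other scalings, at −0.42, −0.41 and −0.36. The difference between the infarct groups was −0.41 (95% interval −0.67 to −0.14, limma adjusted p = 0.12).

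*Lama2* (mm9 chr10:26701094-27336748, minus strand), the muscle chain, had 14.2 and 14.8 FPKM in the WT Sham libraries, 11.1 and 10.9 in the WT MI libraries and 13.7 and 16.0 in the KO-labelled libraries. The WT MI libraries were lowest, and the other 2 groups overlapped. In WT MI against WT Sham the log2 fold change was −0.36 (SE 0.13, limma adjusted p = 0.056), just short of the threshold, and it was called lower under the 3 other scalings (−0.57, −0.59 and −0.50) and among genes with a mean FPKM of at least 5. Against WT Sham the KO-labelled libraries differed by 0.03 (95% interval −0.26 to 0.33), which turned to −0.20, −0.25 and −0.13 under the 3 other scalings and to −0.07 without *Card9* KO MI replicate 2. The libraries labelled *Card9* KO MI were 0.40 above WT MI (95% interval 0.10 to 0.69, limma adjusted p = 0.15).

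**Figure D2:**
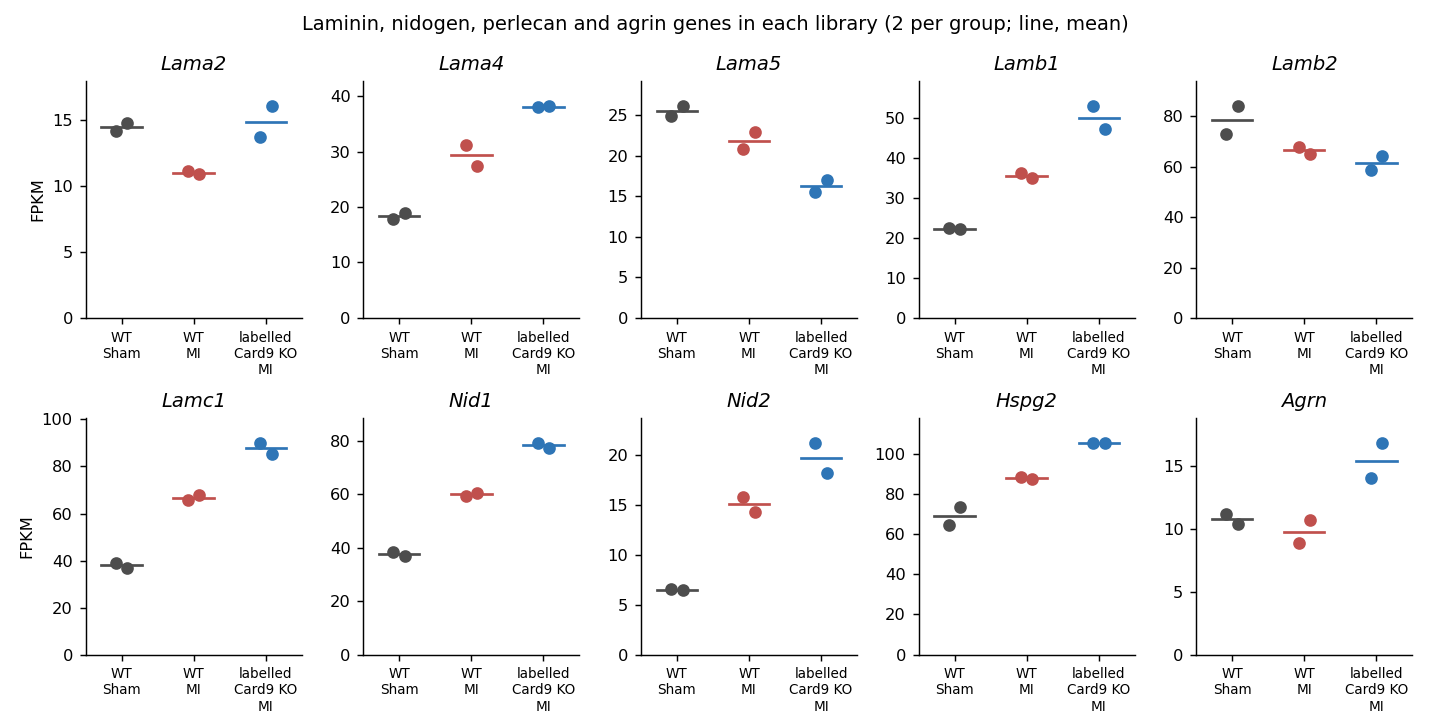
FPKM of the 10 members in each of 6 libraries, 2 per group, with a line at the group mean. *Lama4*, *Lamb1*, *Lamc1*, *Nid1*, *Nid2* and *Hspg2* stand lowest in WT Sham and highest in the KO-labelled libraries, from 37.0 and 39.2 to 89.9 and 85.4 for *Lamc1*, while *Lama5* runs from 24.9 and 26.1 down to 15.5 and 17.0.

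The beta chains also ran in opposite directions. *Lamb1* (mm9 chr12:31950099-32014509, plus strand), a widespread beta chain, had 22.5 and 22.2 FPKM in the WT Sham libraries, 36.3 and 35.0 in the WT MI libraries and 52.9 and 47.3 in the KO-labelled libraries. No groups overlapped. It rose in WT MI against WT Sham by 0.65 on the log2 scale (SE 0.10, limma adjusted p = 0.0024) and stood 1.13 above WT Sham in the KO-labelled libraries (limma adjusted p = 0.00012). Its difference between the infarct groups, 0.48 (95% interval 0.24 to 0.72), had the lowest adjusted p of the 10 members in that comparison, 0.07 from limma, and did not pass.

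*Lamb2* (mm9 chr9:108382193-108392861, plus strand), the beta chain of neuromuscular and kidney basement membranes, had 72.8 and 83.9 FPKM in the WT Sham libraries, 67.9 and 65.0 in the WT MI libraries and 58.7 and 64.3 in the KO-labelled libraries. WT Sham was highest and the groups did not overlap, although the infarct groups nearly met. In WT MI against WT Sham the log2 fold change was −0.23 (SE 0.11, limma adjusted p = 0.13), called lower only under the 3 other scalings, at −0.44, −0.41 and −0.38. *Lamb2* was called lower in the KO-labelled libraries against WT Sham (−0.34, limma adjusted p = 0.03). That call was lost without WT Sham replicate 2 (−0.24), WT MI replicate 1 or 2 (−0.34 for both) or *Card9* KO MI replicate 1 (−0.28), and also without the trend or with only these groups in the fit.

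The gamma chain *Lamc1* (mm9 chr1:155066052-155179916, minus strand), shared by most laminins, had 39.2 and 37.0 FPKM in the WT Sham libraries, 65.8 and 67.8 in the WT MI libraries and 89.9 and 85.4 in the KO-labelled libraries. The 3 groups were well apart. *Lamc1* rose in WT MI against WT Sham (log2 fold change 0.80, SE 0.09, limma adjusted p = 0.00054) and had the lowest adjusted p of the members in the KO-labelled libraries against WT Sham (1.18, limma adjusted p = 5.8e-05). It differed by 0.39 between the infarct groups (95% interval 0.17 to 0.60, limma adjusted p = 0.088).

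Of the nidogens, *Nid1* (mm9 chr13:13529869-13604542, plus strand) had 38.5 and 37.0 FPKM in the WT Sham libraries, 59.2 and 60.5 in the WT MI libraries and 79.1 and 77.3 in the KO-labelled libraries. *Nid2* (mm9 chr14:20570479-20631009, plus strand) was lower throughout, at 6.56 and 6.44, 15.8 and 14.3, and 21.2 and 18.2 in the same order. Both genes were lowest in WT Sham and highest in the KO-labelled libraries, with no overlap. Both rose in WT MI against WT Sham, *Nid1* by 0.65 on the log2 scale (SE 0.09, limma adjusted p = 0.0012) and *Nid2* by 1.10 (SE 0.13, limma adjusted p = 0.00065). *Nid2* was the only member whose call in that comparison also reached a 2-fold change. Against WT Sham the KO-labelled libraries were higher by 1.03 and 1.46 (limma adjusted p = 9.2e-05 and 0.00011), and against WT MI by 0.38 and 0.36, which did not pass (limma adjusted p = 0.086 and 0.18).

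The promoters of 3 genes are shown as examples: *Lamb1* and *Nid1*, called higher in both comparisons with WT Sham, and *Lamb2*, called lower in 1 of them. The same reasons would also admit *Hspg2*, called higher in both, and *Lama5*, called lower in 1, whose promoters are described below without their sequence. The RefSeq promoter table of GRCm38.p6 holds 250 bases before to 50 after each gene start and matched 7 of the 10 members, all but *Lama4*, *Lamc1* and *Nid2*. The stretches are chr12:31265043-31265342 for *Lamb1*, chr13:13437352-13437651 for *Nid1* and chr9:108479612-108479911 for *Lamb2*, all on the plus strand and written 5′ to 3′, with capitals for the letters of a motif match on either strand.
Lamb1: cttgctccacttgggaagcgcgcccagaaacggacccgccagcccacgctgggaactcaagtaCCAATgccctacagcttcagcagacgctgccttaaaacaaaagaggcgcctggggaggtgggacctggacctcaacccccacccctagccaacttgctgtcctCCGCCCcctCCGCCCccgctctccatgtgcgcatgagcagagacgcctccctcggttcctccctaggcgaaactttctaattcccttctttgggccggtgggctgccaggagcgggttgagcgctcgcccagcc
Nid1: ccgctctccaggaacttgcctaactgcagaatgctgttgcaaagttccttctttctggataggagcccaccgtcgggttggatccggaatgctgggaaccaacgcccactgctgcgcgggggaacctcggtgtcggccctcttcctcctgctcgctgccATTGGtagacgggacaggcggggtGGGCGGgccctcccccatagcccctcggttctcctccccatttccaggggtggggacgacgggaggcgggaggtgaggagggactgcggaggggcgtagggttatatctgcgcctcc
Lamb2: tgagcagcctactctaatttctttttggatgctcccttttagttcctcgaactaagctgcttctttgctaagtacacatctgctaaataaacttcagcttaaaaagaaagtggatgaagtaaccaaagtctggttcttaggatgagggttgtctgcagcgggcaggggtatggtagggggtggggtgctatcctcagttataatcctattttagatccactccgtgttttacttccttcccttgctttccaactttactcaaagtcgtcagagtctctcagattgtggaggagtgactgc

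The motifs searched on both strands were the GC box GGGCGG, the box CCAAT, the AP-1 motif TGANTCA and the TATA motif TATAAA, which 35.7%, 37.4%, 7.81% and 13.6% of all 32851 promoters in the table hold. *Lamb1* has 2 GC boxes and 1 CCAAT, *Nid1* has 1 of each, and *Lamb2* has no match in this window. The GC content is 63.7% for *Lamb1*, 64.7% for *Nid1* and 44.0% for *Lamb2*, with a median of 52.7% over all promoters. Among the other matched members, *Lama2* (50.3% GC) holds 1 GC box. *Lama5* (72.7%), which like *Lamb2* was called lower in the KO-labelled libraries against WT Sham, holds 4. *Hspg2* (70.3%) holds 5, while *Agrn* has 2 starts (83.3% and 61.3%) with 12 and 2. AP-1 and TATA letters were found in 0 of these 8 promoters. A match describes the letters and is not a measured site.

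Perlecan, *Hspg2* (mm9 chr4:137024634-137126545, plus strand), had 64.5 and 73.3 FPKM in the WT Sham libraries, 88.4 and 87.5 in the WT MI libraries and 105.3 and 105.3 in the KO-labelled libraries. WT Sham was lowest, and no groups overlapped. *Hspg2* rose in WT MI against WT Sham by 0.35 on the log2 scale (SE 0.10, limma adjusted p = 0.024). That call was lost without WT Sham replicate 1 (0.26) or WT MI replicate 1 or 2 (0.34 and 0.36), without the trend, and under the 3 other scalings (0.14, 0.17 and 0.20). It was higher by 0.61 in the KO-labelled libraries against WT Sham (limma adjusted p = 0.0015) and differed by 0.26 between the infarct groups (95% interval 0.04 to 0.48, limma adjusted p = 0.19).

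Agrin, *Agrn* (mm9 chr4:155539399-155571536, minus strand), a proteoglycan that binds dystroglycan, had 11.2 and 10.4 FPKM in the WT Sham libraries, 8.87 and 10.7 in the WT MI libraries and 14.1 and 16.8 in the KO-labelled libraries. WT Sham and WT MI overlapped, and the KO-labelled libraries were above both. In WT MI against WT Sham the log2 fold change was −0.13 (95% interval −0.48 to 0.21). *Agrn* was called higher in the KO-labelled libraries against WT Sham (0.48, SE 0.15, limma adjusted p = 0.031). That call was lost without WT Sham replicate 1 (0.53), WT Sham replicate 2 (0.42) or *Card9* KO MI replicate 2 (0.35), and under the 3 other scalings (0.24, 0.19 and 0.32). Its difference between the infarct groups, 0.61 (95% interval 0.26 to 0.96, limma adjusted p = 0.094), was the largest of the 10 members there and did not pass.

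The order of the levels differed between the groups. In WT Sham *Lamb2* and *Hspg2* overlapped at the top, *Lamc1* and *Nid1* overlapped next, and *Nid2* was lowest. In WT MI *Hspg2* stood alone at the top, followed by *Lamb2* and *Lamc1*, which overlapped, and *Agrn* was lowest. The order in the KO-labelled libraries was *Hspg2*, *Lamc1*, *Nid1*, *Lamb2*, *Lamb1*, *Lama4* and *Nid2*, each apart from the next, and *Lama5*, *Agrn* and *Lama2* overlapped at the bottom. Summed FPKM of the 10 members was 312 and 330 in the WT Sham libraries, 405 and 402 in the WT MI libraries and 488 and 486 in the KO-labelled libraries.

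The alpha chains summed to an FPKM of 56.9 and 59.8 in the WT Sham libraries, 63.1 and 61.3 in the WT MI libraries and 67.2 and 71.1 in the KO-labelled libraries. Of this sum, *Lama2* held 24.9% and 24.7%, 17.6% and 17.8%, and 20.4% and 22.5% in the same order. *Lama5* held 43.8% and 43.6% in the WT Sham libraries, 32.9% and 37.4% in the WT MI libraries and 23.1% and 23.9% in the KO-labelled libraries. *Lama4* held 31.3% and 31.7%, 49.5% and 44.8%, and 56.5% and 53.6%, so it passed *Lama5* as the main alpha chain in the infarct libraries. *Lamb1* held 23.6% and 20.9% of the beta chain sum in the WT Sham libraries, 34.8% and 35.0% in the WT MI libraries and 47.4% and 42.4% in the KO-labelled libraries, with *Lamb2* the larger share in all 6. The FPKM of *Lamc1* per unit of summed alpha chains was 0.689 and 0.618, 1.04 and 1.11, and 1.34 and 1.20. These shares are descriptions of transcript levels and were not tested.

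**Figure D3:**
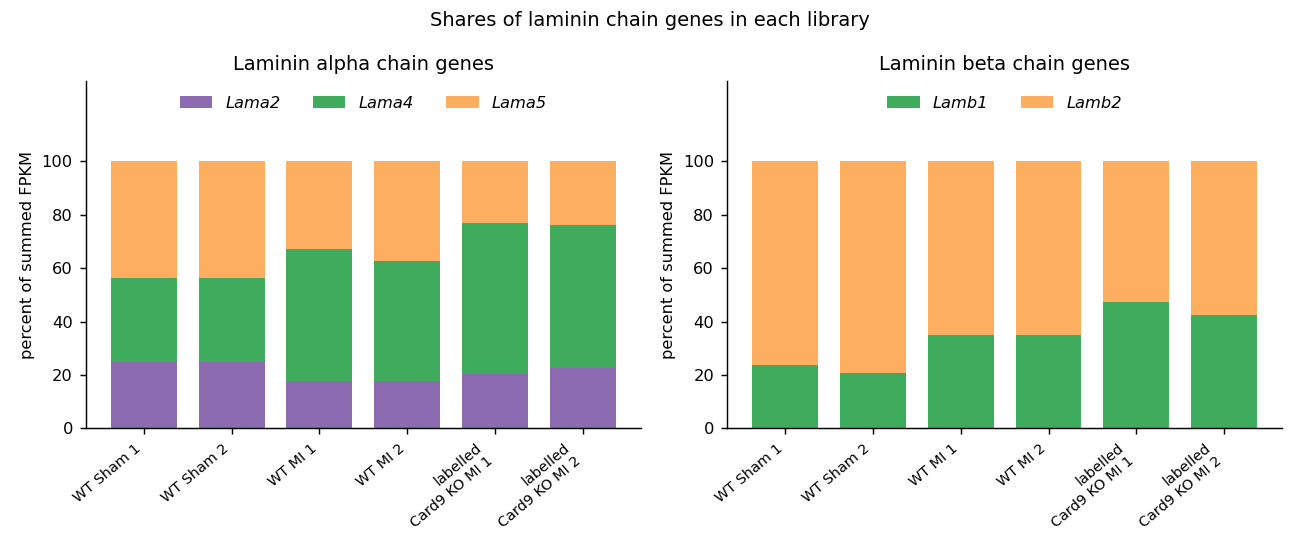
Share of each alpha and beta chain gene in the summed FPKM of its chain type, in percent, for each of 6 libraries. The *Lama4* share runs from 31.3% and 31.7% in WT Sham to 56.5% and 53.6% in the KO-labelled libraries, and the *Lamb1* share from 23.6% and 20.9% to 47.4% and 42.4%.

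Ratios of 2 genes within a library do not depend on a common factor per library. The ratio of *Lama4* to *Lama2* was 1.26 and 1.29 in the WT Sham libraries, 2.81 and 2.52 in the WT MI libraries and 2.77 and 2.38 in the KO-labelled libraries. Both infarct groups lay above WT Sham and overlapped each other. The ratio of *Lama5* to *Lama2* was 1.76 and 1.77, 1.87 and 2.10, and 1.13 and 1.06 in the same order, with the KO-labelled libraries lowest. *Lamb1* to *Lamb2* gave 0.309 and 0.264, 0.534 and 0.538, and 0.901 and 0.736, and no groups overlapped. The mean log2 ratio of *Lamb1* to *Lamb2* was 0.91 above WT Sham in WT MI and 1.51 above it in the KO-labelled libraries.

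*Nid2* to *Nid1* was 0.171 and 0.174 in the WT Sham libraries, 0.267 and 0.237 in the WT MI libraries and 0.268 and 0.236 in the KO-labelled libraries. Both infarct groups were above WT Sham, by 0.54 in mean log2 ratio, and they overlapped each other. *Hspg2* to *Agrn* was 5.76 and 7.07, 9.97 and 8.19, and 7.49 and 6.25, highest in WT MI, with the other 2 groups overlapping. With 2 libraries against 2, a two-sided exact permutation test cannot give a p below 0.33, and this smallest value was reached by the 12 of 15 comparisons of ratios whose groups did not overlap (adjusted p = 0.42 over the 15). The ratios are therefore given for their values.

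*Lamb3*, a laminin chain outside the 10 members, was scarce, with an FPKM of 2.86 and 2.58 in the WT Sham libraries, 1.21 and 1.55 in the WT MI libraries and 1.08 and 1.36 in the KO-labelled libraries. It was called lower in both comparisons with WT Sham (−0.65 and −0.75 on the log2 scale). The first of these calls was lost whichever of the 6 libraries was left out (−0.75 to −0.54), and the second without WT Sham replicate 1 (−0.69), WT Sham replicate 2 (−0.80) or *Card9* KO MI replicate 1 (−0.66). It was not called between the infarct groups, also not at an unadjusted p below 0.05 in limma.

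Most tested collagens of the basement membrane rose after infarction. Of 7 tested collagen genes, 5 were called higher and 1 lower in WT MI against WT Sham, at a median log2 fold change of 0.78, and 5 higher and 0 lower in the KO-labelled libraries against WT Sham, with a median of 1.35 and 0 lower at an unadjusted p below 0.05 in limma. *Col4a1*, a chain of the main collagen IV network, had 120.1 and 99.3 FPKM in the WT Sham libraries, 213 and 199 in the WT MI libraries and 343 and 307 in the KO-labelled libraries. *Col18a1*, which bears heparan sulfate like perlecan and agrin, had 4.03 and 3.23, 18.0 and 16.1, and 34.6 and 29.4 in the same order. For both genes no groups overlapped. The log2 fold changes in WT MI against WT Sham were 0.91 for *Col4a1* and 1.96 for *Col18a1* (limma adjusted p = 0.00089 and 0.0001), with 0.78 for *Col4a2* and 1.11 for *Col15a1*. The 1 lower gene was *Col4a4* (−0.90) and the other higher gene was *Col4a5* (0.49), both named after their values were seen. The call of *Col4a4* was lost without WT Sham replicate 1 (−0.73) or WT MI replicate 1 or 2 (−0.97 and −0.84), and that of *Col4a5* without WT Sham replicate 1 or 2 (0.44 and 0.53) or WT MI replicate 1 or 2 (0.49 and 0.48). All genes tested had 27.7% higher and 9.39% lower in WT MI, and 34.8% and 14.3% in the KO-labelled libraries. The higher count in WT MI was 4 under each of the 3 other scalings, with 2 lower after quantile normalization. *Col4a4* was also called lower in the KO-labelled libraries against WT Sham with upper-quartile scaling (−0.69) and quantile normalization (−1.04).

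Between the infarct groups, 4 collagen genes were called higher and 0 lower in the KO-labelled libraries, with a median of 0.57 and 0 lower at an unadjusted p below 0.05 in limma. They were *Col18a1* (0.87, limma adjusted p = 0.044), *Col15a1* (0.70, adjusted p = 0.021), *Col4a1* (0.65, adjusted p = 0.047) and *Col4a2* (0.57, adjusted p = 0.049). Of all genes, 0.816% were higher and 0.587% lower in that comparison. These calls were close to the threshold. Without any 1 of the 6 libraries 0 or 1 of them remained: *Col15a1* was called without WT Sham replicate 1 or 2, and was not called without any infarct library (0.63 to 0.77), nor were the other 3 without any library (0.50 to 0.64 for *Col4a2*, 0.57 to 0.73 for *Col4a1* and 0.76 to 0.99 for *Col18a1*). *Col4a2* was also not called with upper-quartile scaling (0.53). That these collagens passed and the 10 members did not does not show that they differed from each other, which was not tested.

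Among 13 tested genes of other basement membrane proteins, 4 were called higher and 3 lower in WT MI against WT Sham, with a median log2 fold change of 0.10 that turned to −0.30 with quantile normalization, −0.03 without WT Sham replicate 2 and −0.02 without WT MI replicate 1. The median was also 0.00 and 0.04 under the other 2 scalings, 0.03 without WT Sham replicate 1 and 0.22 without WT MI replicate 2. Quantile normalization gave 4 higher and 5 lower, beside 2198 higher and 2447 lower of all 13120 genes. As deposited, 27.7% of all genes tested were called higher and 9.39% lower in WT MI, with a median of 0.19, so the higher count was near that share. *Sparc*, which binds collagen IV, had 213 and 177 FPKM in the WT Sham libraries, 617 and 691 in the WT MI libraries and 1148 and 1049 in the KO-labelled libraries. *Fbln2*, a fibulin that binds laminin and nidogen, had 27.8 and 27.1, 121 and 114, and 119 and 116 in the same order. For *Sparc* no groups overlapped, while the infarct groups overlapped for *Fbln2*. Log2 fold changes in WT MI against WT Sham were 1.75 and 2.06 (limma adjusted p = 6.3e-05 and 1.4e-05). *Tinagl1* (0.67) and *Pxdn* (0.91) were the other 2 called higher, and *Egflam* (−1.13), *Papln* (−1.10) and *Fbln1* (−0.62) were called lower, with *Pxdn* and the 3 lower genes named after their values were seen. The call of *Papln* was lost without WT MI replicate 1 (−0.96), and that of *Fbln1* without WT Sham replicate 2 (−0.47) or WT MI replicate 1 (−0.44). In the KO-labelled libraries against WT Sham 7 were higher and 1 lower (*Fbln1*), with a median of 0.47. With quantile normalization 3 were higher and 4 lower there, so that the balance turned, and under each of the other 2 scalings 5 were higher and 2 lower (medians 0.27, 0.23 and 0.31), beside 34.8% higher and 14.3% lower among all genes as deposited (median 0.24). Against WT MI 1 was higher, *Sparc* (0.75, limma adjusted p = 0.037), and 0 lower, against 2 and 0 with quantile normalization, and at an unadjusted p below 0.05 limma counted 8 higher and 0 lower. Among all genes 0.816% were called higher and 0.587% lower in that comparison, and 11.5% and 8.57% passed at that unadjusted p. The call of *Sparc* against WT MI was lost without WT Sham replicate 2 (0.75), WT MI replicate 1 (0.67), WT MI replicate 2 (0.83), *Card9* KO MI replicate 1 (0.68) or *Card9* KO MI replicate 2 (0.81).

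Receptors for laminins and agrin include integrins, dystroglycan, the Lutheran glycoprotein *Bcam* and syndecans. Of 13 tested, 6 were called higher and 0 lower in WT MI against WT Sham (median log2 fold change 0.46, and 0 lower at an unadjusted p below 0.05 in limma), beside 27.7% and 9.39% of all genes (median 0.19). Upper-quartile scaling gave 6 higher and 1 lower, and quantile normalization 5 and 0 with a median of 0.11. *Itgb1*, the beta subunit of most laminin-binding integrins, had 113 and 107 FPKM in the WT Sham libraries, 216 and 198 in the WT MI libraries and 236 and 225 in the KO-labelled libraries. It rose by 0.90 in WT MI against WT Sham (SE 0.09, limma adjusted p = 0.0003). *Sdc1* had an FPKM of 1.85 and 1.18, 18.6 and 14.3, and 16.5 and 12.1, and *Sdc4* had 5.38 and 5.48, 27.1 and 21.2, and 17.2 and 16.8. These syndecans rose by 2.80 and 1.96 in WT MI against WT Sham (limma adjusted p = 0.00011 and 8.5e-05). Against WT Sham the KO-labelled libraries had 8 receptors called higher and 1 lower, with a median of 0.46, beside 34.8% and 14.3% of all genes (median 0.24). These counts became 5 and 2 with upper-quartile scaling (median 0.28), 5 and 2 with quantile normalization (0.21), 6 and 2 without the 100 most abundant genes, and 5 and 0 without *Card9* KO MI replicate 1. Of all genes, 0.816% were called higher and 0.587% lower between the infarct groups (median 0.04), and 11.5% and 8.57% in limma without adjustment. Against WT MI limma called 0 receptors in either direction, with 2 higher and 3 lower at an unadjusted p below 0.05 and a median of −0.17. Leaving out replicate 2 of WT MI moved this median to −0.03, and leaving out replicate 2 of the KO-labelled libraries moved it to −0.08.

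The 1 lower receptor was dystroglycan, *Dag1*, with an FPKM of 117 and 129 in the WT Sham libraries, 114 and 104 in the WT MI libraries and 82.0 and 99.3 in the KO-labelled libraries. Against WT Sham it was lower in the KO-labelled libraries (log2 fold change −0.44, limma adjusted p = 0.017), a call lost without WT Sham replicate 2 (−0.37) or *Card9* KO MI replicate 1 (−0.30). It was at −0.17 in WT MI against WT Sham and did not pass as deposited, and was called lower with upper-quartile scaling (−0.38). Dystroglycan joins laminin with the *Lama2* chain to the dystrophin complex. Of 12 genes of that complex, 1 was called higher and 2 lower in WT MI against WT Sham, with a median of 0.01 that turned negative under the 3 other scalings (−0.19, −0.22 and −0.13) and without WT Sham replicate 2 (−0.07) or WT MI replicate 1 (−0.02). The counts there were 1 and 4, 0 and 4, and 1 and 4 under these scalings, 1 and 4 with either KO-labelled library left out, 2 and 0 without WT Sham replicate 2, 0 and 0 without WT MI replicate 1, and 1 and 1 without WT Sham replicate 1. Against WT Sham, 3 were higher and 6 lower in the KO-labelled libraries, with a median of −0.40, against 2 and 8, 1 and 8, and 3 and 8 under the 3 other scalings (medians −0.64, −0.70 and −0.57) and 1 and 4 without *Card9* KO MI replicate 1. *Sgca*, alpha-sarcoglycan, was the most abundant of the 12 in the WT Sham and WT MI libraries and below *Sspn* in both KO-labelled libraries. It had 78.8 and 80.2 FPKM in the WT Sham libraries, 67.5 and 59.4 in the WT MI libraries and 39.2 and 46.5 in the KO-labelled libraries, with no overlap. It fell by 0.88 in the KO-labelled libraries against WT Sham (limma adjusted p = 0.00063). The shares of all genes called were 27.7% higher and 9.39% lower in WT MI, and 34.8% and 14.3% in the KO-labelled libraries.

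*Sspn*, sarcospan, was called lower in WT MI against WT Sham (−0.55), except without WT Sham replicate 2 (−0.54) or WT MI replicate 1 (−0.46), and *Sgcb* (−0.44), named after its values were seen, was the other lower gene, except without WT Sham replicate 1 or 2 (−0.45 and −0.43) or WT MI replicate 1 (−0.38). *Sntb2*, a syntrophin, was the 1 called higher there (0.85), except without WT MI replicate 1 (0.70) or with quantile normalization (0.51). The 3 called higher in the KO-labelled libraries were *Sntb1* (1.51), *Sntb2* (0.77, not called without *Card9* KO MI replicate 1, at 0.64, or with quantile normalization, at 0.33) and *Sgce* (0.63), named after its values were seen and not called without WT Sham replicate 1 (0.51) or *Card9* KO MI replicate 1 (0.48), or with upper-quartile scaling (0.40) or quantile normalization (0.33). Against WT MI limma called 0 of the 12 in either direction, with 1 higher and 5 lower at an unadjusted p below 0.05 and a median of −0.16, which was −0.28 without *Card9* KO MI replicate 2. Among all genes 11.5% were higher and 8.57% lower at that unadjusted p, and 0.816% and 0.587% were called.

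Dystroglycan binds laminin through sugars, and of 16 genes of its glycosylation 2 were called higher and 0 lower in WT MI against WT Sham, with 1 lower at an unadjusted p below 0.05 in limma and a median of 0.10 that turned negative under the 3 other scalings (−0.07, −0.19 and −0.01) and without WT Sham replicate 2 (−0.02). Each of these scalings gave 1 higher and 2 lower. Of these 16, 3 were higher and 3 lower in the KO-labelled libraries than in WT Sham (median −0.09), while the 3 other scalings gave 1 higher and mostly lower calls (6, 8 and 6 lower, medians −0.28, −0.49 and −0.21). With either KO-labelled library left out 1 was higher and 1 lower, and without WT Sham replicate 2 these counts were 2 and 1. The median was −0.15 without WT Sham replicate 2 and 0.00 without *Card9* KO MI replicate 2. Limma called 0 against WT MI, with 0 higher and 2 lower at an unadjusted p below 0.05 (median −0.14, and −0.23 with quantile normalization or without WT MI replicate 1). *Dpm2* was among those higher in both comparisons with WT Sham, at 0.79 and 0.88, although its call in WT MI was lost without WT MI replicate 1 (0.85) or WT MI replicate 2 (0.74). *Rxylt1* was the other higher gene in WT MI (0.43), a call lost whichever library was left out (0.29 to 0.56) and under the 3 other scalings (0.23, 0.20 and 0.29). The other 2 higher genes in the KO-labelled libraries were *Dpm3* (0.65) and *Pomgnt1* (0.45), and *Dpm1* (−0.37) was among the lower, with *Dpm3* and *Dpm1* named after their values were seen. Both higher calls were lost under the 3 other scalings (0.41, 0.37 and 0.49 for *Dpm3*, 0.20, 0.20 and 0.28 for *Pomgnt1*). That of *Dpm3* was also lost without any library but WT Sham replicate 1 (0.35 to 0.76), and that of *Pomgnt1* without WT Sham replicate 1 (0.36) or *Card9* KO MI replicate 1 or 2 (0.41 and 0.48). The call of *Dpm1* was lost whichever library was left out (−0.45 to −0.30). For all genes tested the shares called were 27.7% (higher) and 9.39% (lower) in WT MI, and 34.8% and 14.3% in the KO-labelled libraries. They were 0.816% and 0.587% between the infarct groups, and 11.5% and 8.57% there at an unadjusted p below 0.05 in limma. These shares are as deposited. Under the 3 other scalings, 3230 and 2884, 2755 and 3444, and 3642 and 2527 of 13120 genes were higher and lower in the KO-labelled libraries. In WT MI these splits were 2603 and 2159, 2198 and 2447, and 2869 and 1830.

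Cell type markers are given beside the members. The calls over all genes to set them against are 27.7% higher and 9.39% lower in WT MI, 34.8% and 14.3% in the KO-labelled libraries, both against WT Sham, and 0.816% and 0.587% between the infarct groups. With an unadjusted p below 0.05 in limma these shares are 33.9% and 12.8%, 39.4% and 16.7%, and 11.5% and 8.57%. Fewer cells of a type and less RNA per cell cannot be told apart in whole tissue. Of 10 cardiomyocyte markers, 0 were higher and 7 lower in WT MI against WT Sham (median log2 fold change −0.84) and 0 higher and 10 lower in the KO-labelled libraries against WT Sham (median −0.89), with 0 higher at an unadjusted p below 0.05 in limma. Quantile normalization gave 1 higher and 7 lower in both comparisons and smaller medians (−0.39 and −0.35). Their summed FPKM was 47204 and 48470 in the WT Sham libraries, 29241 and 29696 in the WT MI libraries and 24672 and 28481 in the KO-labelled libraries. *Actc1*, the most abundant in the infarct groups and below *Myl2* in both WT Sham libraries, had 10230 and 9931, 7910 and 8910, and 6905 and 8531, and its direction against WT Sham turned with quantile normalization (0.49 in both comparisons), as did that of *Tnnt2* (0.25 and 0.09). In the second comparison *Actc1* was at −0.39 and its call was lost without WT Sham replicate 1 (−0.37), WT Sham replicate 2 (−0.41), WT MI replicate 1 or 2 (−0.39 for both) or *Card9* KO MI replicate 1 (−0.24). Limma called 0 of these markers between the infarct groups, with 0 higher and 3 lower at an unadjusted p below 0.05.

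Endothelial markers were closer to level. Of 10, 2 were called higher and 1 lower in WT MI against WT Sham (median 0.18, and −0.02, −0.02 and 0.04 under the 3 other scalings), and 3 higher and 2 lower in the KO-labelled libraries against WT Sham (median 0.22, and −0.03, 0.05 and 0.05). Under these scalings the counts were 0 and 3, 0 and 3, and 0 and 2 in the first comparison and 2 and 3, 2 and 3, and 2 and 2 in the second. Their summed FPKM was 400.0 and 391 in the WT Sham libraries, 421 and 418 in the WT MI libraries and 476 and 466 in the KO-labelled libraries, and *Cdh5*, VE-cadherin and the most abundant, had 87.0 and 82.6, 97.5 and 95.5, and 128 and 124. Against WT MI limma called 0, with 2 higher and 1 lower at an unadjusted p below 0.05. The 2 higher in WT MI were *Vwf* (0.43) and *Pecam1* (0.40), and the 1 lower was *Kdr* (−0.68). Neither higher call held under the 3 other scalings (0.24, 0.19 and 0.29 for *Vwf*, 0.19, 0.22 and 0.25 for *Pecam1*) or without WT Sham replicate 2 (0.35 and 0.36) or WT MI replicate 1 (0.46 and 0.29). *Vwf* was also not called without WT MI replicate 2 (0.40), nor *Pecam1* without WT Sham replicate 1 (0.45). The KO-labelled libraries had *Pecam1* (0.61), *Cdh5* (0.57) and *Vwf* (0.45) higher and *Kdr* (−0.57) and *Flt1* (−0.32, named after its values were seen) lower. The call of *Vwf* was lost without WT Sham replicate 2 (0.37) or *Card9* KO MI replicate 1 or 2 (0.45 and 0.46) and under the 3 other scalings (0.22, 0.15 and 0.29), and that of *Flt1* whichever library was left out (−0.40 to −0.25).

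Of 10 pericyte and smooth muscle markers, 4 were higher and 3 lower in WT MI against WT Sham (median 0.39) and 7 higher and 3 lower in the KO-labelled libraries against WT Sham (median 0.85). The first median became 0.19, 0.12 and 0.25 under the 3 other scalings and 0.22 without WT MI replicate 1, and the second 0.63, 0.49 and 0.70, with 5, 5 and 6 higher and 3 lower. Their summed FPKM was 295 and 343 in the WT Sham libraries, 353 and 337 in the WT MI libraries and 587 and 573 in the KO-labelled libraries, and *Acta2*, smooth muscle actin, the most abundant in the infarct groups and below *Rgs5* in both WT Sham libraries, had 34.8 and 54.2, 117 and 97.2, and 252 and 239. The 3 lower genes were *Abcc9* (−0.82 and −1.26), *Rgs5* (−0.58 and −0.50) and *Kcnj8* (−0.47 and −0.44) in both comparisons, with *Abcc9* and *Kcnj8* named after their values were seen. Both calls of *Kcnj8* were lost without any library but WT Sham replicate 1 (−0.50 to −0.28 and −0.46 to −0.24).

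Of 10 fibroblast markers, 7 were higher and 1 lower in WT MI against WT Sham (median 0.77) and 8 higher and 1 lower in the KO-labelled libraries against WT Sham (median 0.69). With quantile normalization 5 were higher and 1 lower in each (medians 0.49 and 0.40), and in the second 5 were higher with upper-quartile scaling or without *Card9* KO MI replicate 1. Their summed FPKM was 928 and 928 in the WT Sham libraries, 1593 and 2017 in the WT MI libraries and 2873 and 2793 in the KO-labelled libraries, and *Col1a1*, the most abundant in the KO-labelled libraries but below *Gsn* in both WT Sham libraries and below *Col3a1* in WT MI replicate 1, had 45.4 and 41.0, 359 and 516, and 932 and 870.3. Of 10 macrophage markers, 10 were higher in both comparisons with WT Sham (medians 2.12 and 2.64), with summed FPKM of 281 and 233, 1093 and 1411, and 2164 and 1543 and *Lyz2*, the most abundant, at 152 and 124, 617 and 830.2, and 1168 and 821. Of 10 neutrophil markers 5 could be tested and 5 were higher in both comparisons with WT Sham (medians 3.15 and 2.49, and 3 higher in the second with quantile normalization), while *Ly6g*, *Camp* and *Elane* were not listed. Their summed FPKM was 7.51 and 5.40, 205 and 88.9, and 55.9 and 43.8, and *S100a9*, the most abundant except in WT Sham replicate 2, had 2.06 and 0.72, 94.0 and 39.2, and 21.2 and 14.7.

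Between the infarct groups, 0.816% of all genes were called higher and 0.587% lower, and 11.5% and 8.57% passed at an unadjusted p below 0.05 in limma. Of the fibroblast markers 2 were higher, *Postn* (1.57 on the log2 scale) and *Col1a1* (1.06), and 1 lower, *Gsn* (−0.57), named after its values were seen. Of the pericyte and smooth muscle markers 2 were higher, *Tagln* (1.47) and *Acta2* (1.19), and 0 lower, and of the macrophage markers 1 was higher, *Cx3cr1* (1.09), and 0 lower. At an unadjusted p below 0.05 limma counted 4 and 2, 6 and 1, and 5 and 0, and with quantile normalization 3 and 1, 3 and 0, and 2 and 0 were called. Leaving out a library ended most of these calls. *Gsn* (−0.65 to −0.49) and *Cx3cr1* (0.90 to 1.28) were not called whichever of the 6 libraries was left out, *Postn* (1.38 to 1.76) and *Acta2* (1.06 to 1.33) without any infarct library, *Col1a1* (0.80 to 1.11) without any but WT MI replicate 2, and *Tagln* (1.35 for both) without WT MI replicate 1 or *Card9* KO MI replicate 1. Of the neutrophil markers limma called 0, with 0 higher and 2 lower at an unadjusted p below 0.05 and a median of −0.64, which was −1.11 without WT MI replicate 2. Schwann cell, epicardial and adipocyte markers had 3 tested genes each. Against WT Sham, 2, 1 and 0 of the 3 were higher and 0 lower in WT MI, and likewise in the KO-labelled libraries. The Schwann cell count was 1 without WT Sham replicate 1 or WT MI replicate 1 in WT MI, and 1 in the KO-labelled libraries without WT Sham replicate 1 or 2 or *Card9* KO MI replicate 1, with upper-quartile scaling or with quantile normalization. The epicardial count was 0 without WT Sham replicate 1 or WT MI replicate 1 or 2 and under the same 2 scalings in WT MI, and 0 in the KO-labelled libraries without *Card9* KO MI replicate 1 or with quantile normalization. In WT MI 1 adipocyte marker was lower with upper-quartile scaling or without the 100 most abundant genes. Limma called 0 of these markers in either direction against WT MI. At an unadjusted p below 0.05 limma counted 2, 2 and 0 higher, then 2, 1 and 0 higher, and then 1, 0 and 1 higher and 0, 1 and 0 lower. The part of any cell type in the values of the 10 members was not tested.

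**Figure D4:**
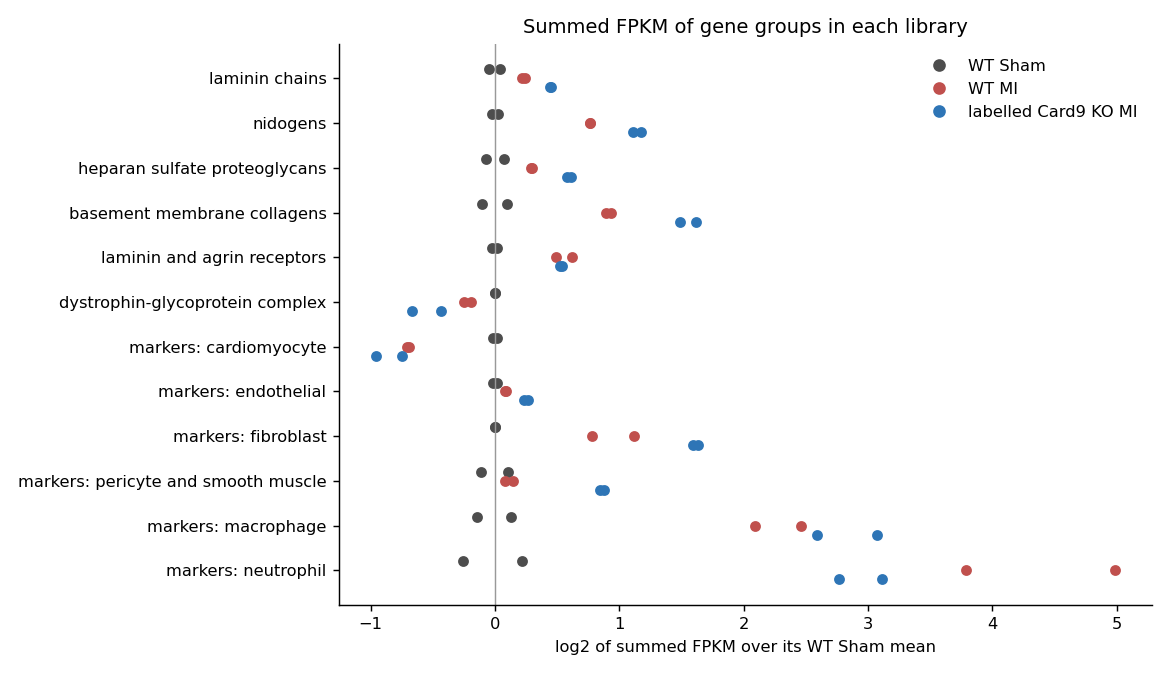
Summed FPKM of gene groups in each of 6 libraries, as log2 of the sum over its WT Sham mean, with 2 points per group. Fibroblast markers run from 928 summed FPKM in both WT Sham libraries to 2873 and 2793 in the KO-labelled libraries, while cardiomyocyte markers run from 47204 and 48470 down to 24672 and 28481 and neutrophil markers peak in WT MI at 205 and 88.9.

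For 3 members the genes with the most similar pattern were found by Euclidean distance over the 6 libraries, on log2(FPKM + 1) minus the mean of WT Sham, among all genes tested. Nearest to *Lamc1* were *Prr13*, *Atp8b2* and *Akr1a1*, at distances of 0.108, 0.109 and 0.110. Nearest to *Nid1* were *Snx6*, *Pcolce2* and *Fndc3a*, at 0.120, 0.136 and 0.143, and nearest to *Lama2* were *Siae*, *Pou6f1* and *Gatad2b*, at 0.110, 0.171 and 0.179. *Prr13*, for one, had 36.7 and 33.0 FPKM in the WT Sham libraries, 62.7 and 64.0 in the WT MI libraries and 85.7 and 76.6 in the KO-labelled libraries, close to *Lamc1* in level as well as in pattern.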

How the data were processed

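Sequencing by the authors used an Illumina HiSeq, with BWA and Bowtie2 for mapping to mm9, and the deposited values are FPKM to 2 decimals, keyed by NCBI gene number. Tool versions, annotation and strand setting are not given in the sources used here. Genes not listed were set to 0. Symbols came from a GRCm38.p6 table (17390 of 17441 genes matched, 51 not) and positions from the GENCODE annotation of mm9. Depth was estimated from the lowest values, of which 71.5% to 74.6% lay within 0.15 of whole fragments, so counts were not rebuilt.

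Genes that reached FPKM 1 in 2 or more libraries (13120) were tested with limma 3.58.1 in R 4.3.3 (lmFit, eBayes with trend) on log2(FPKM + 1), all 3 groups in 1 fit, with Benjamini-Hochberg adjustment. Ratios were compared in Python 3.11.15 by exact permutation. Both steps were tested on simulated data. Replicates correlated across genes, which are not independent, at r = 0.980, 0.981 and 0.980.

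Named genes are the 10 members, *Card9*, the 3 most abundant genes of a list or its 2 largest called changes in the comparison described, and the 3 nearest genes of *Lamc1*, *Lama2* and *Nid1*. Genes named after their values were seen are marked so. Some listed genes count in the totals and are not reported here by name. Members and lists (other laminins, collagens, other basement membrane proteins, receptors, dystrophin complex, dystroglycan glycosylation, heparan sulfate enzymes, proteases, and 9 marker lists) were chosen with earlier results of these data known. Alternatives were other added values, filters, scalings, fits, a replicate block, a 2-fold limit and each library left out.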

Additional observations from a re-analysis of the deposited data

How the results depend on the processing

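The 3 comparisons were refitted under 18 alternatives, and limma called 0 members between the infarct groups under all of them. Among the log2 fold changes of the members under these alternatives, 498 kept their direction and side of the threshold, 28 no longer passed, 10 newly passed and 4 turned. With a 2-fold limit, 1 member was higher and 0 lower in WT MI against WT Sham, beside 1529 and 178 of 13120 genes. In the KO-labelled libraries against WT Sham 5 members were then higher and 0 lower, beside 2128 and 416 genes. In WT MI, 1 member was lower than in WT Sham at a mean FPKM of at least 5, where 1151 of 8786 genes tested were lower. Under the 3 scalings 2159, 2447 and 1830 of 13120 genes were lower there, and 3 members were lower under each. In the KO-labelled libraries, 1 was lower in a fit of only these groups and WT Sham, 1 without the trend, and 1 to 2 with each library left out. The cause was not tested. The log2 fold change of *Lama2* in that comparison turned to −0.20, −0.25 and −0.13 under upper-quartile scaling, quantile normalization and rescaling without the 100 most abundant genes, and was −0.07 to 0.14 with each library left out.

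The log2 ratio of *Nid2* to *Nid1* between the infarct groups, 0.00, was −0.02 with FPKM + 1 and −0.09 to 0.09 with each library left out. That of *Lama4* to *Lama2* there, −0.05, was −0.16 to 0.06, and that of *Hspg2* to *Agrn* between the KO-labelled libraries and WT Sham, 0.10, was −0.05 to 0.25.

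With the replicate number as a replicate block, 6 members were higher and 0 lower, 0 and 0, and 7 and 2 in the 3 comparisons, as without it. Over all genes the block gave 3503 higher and 1148 lower, 45 and 26 (107 and 77 without it), and 4419 and 1822. Differences between replicates 1 and 2 correlated at 0.00, −0.01 and 0.02 between groups, so the samples share only a number.

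Counts over all genes between the infarct groups, 107 and 77, also moved by over 1.5 times with an added FPKM of 0.1 (47 and 33) or 5 (200 and 112), no filter (7 and 5), mean FPKM of at least 5 (148 and 136), only these groups (69 and 32), no trend (40 and 18), genes listed in all libraries (163 and 134), quantile normalization (125 and 118), a 2-fold limit (61 and 35) and each library left out (3 to 63 and 5 to 33). With that limit the counts against WT Sham were 1529 and 178 for WT MI, and 2128 and 416 for the KO-labelled libraries. With each library left out, they were 2256 to 3487 and 627 to 1193, and 3209 to 4264 and 1256 to 1735.

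With 1 library left out, the lone library of its group is assumed to vary like the others. With 2 libraries per group, an adjusted p above 0.05 does not show that levels were equal. At the estimated depth every member had at least 94.8 fragments in each library, so counting error was at most 10.3%. *Card9* itself had about 6 fragments in each WT Sham library, and its level there is known only roughly. Without a stated strand setting, reads of overlapping antisense genes cannot be told apart.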

Other observations

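Enzymes that build and edit heparan sulfate, the sugar that perlecan, agrin and *Col18a1* carry, were followed in a list of 20 genes. In WT MI against WT Sham 7 of them were called higher and 1 lower, beside 27.7% and 9.39% of all genes tested, with a median log2 fold change of 0.30 that became 0.11, 0.00 and 0.16 under upper-quartile scaling, quantile normalization and rescaling without the 100 most abundant genes. In the KO-labelled libraries against WT Sham 11 were higher and 1 lower (median 0.56), beside 34.8% and 14.3% of all genes, and 6 and 1 with quantile normalization (median 0.29, and 0.32 with upper-quartile scaling). The lower gene was *Extl1* in both (−0.66 and −1.10), named after its values were seen, and its call in WT MI was lost without WT Sham replicate 1 (−0.60) or WT MI replicate 1 or 2 (−0.64 and −0.67). *Sulf2*, a sulfatase that removes sulfate groups, had 27.5 and 30.2 FPKM in the WT Sham libraries, 47.9 and 43.5 in the WT MI libraries and 45.2 and 46.2 in the KO-labelled libraries. *Sulf1*, a related sulfatase, had 5.61 and 6.64, 21.5 and 20.3, and 23.2 and 24.2, and *Hpse*, heparanase, which cleaves the chains, had 0.41 and 0.32, 3.59 and 3.61, and 5.77 and 5.62. For each of these genes both infarct groups lay above WT Sham. In WT MI they were higher than in WT Sham by 0.65, 1.62 and 1.75 on the log2 scale (limma adjusted p = 0.0026, 0.00011 and 0.00032). Between the infarct groups limma called 0 of the 20, with 4 higher and 1 lower at an unadjusted p below 0.05 (median 0.08, and 0.03 with quantile normalization or without *Card9* KO MI replicate 1, 0.05 with upper-quartile scaling and 0.17 without *Card9* KO MI replicate 2). Among all genes 11.5% were higher and 8.57% lower at that unadjusted p, and 0.816% and 0.587% were called.

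Of 12 tested proteases that cleave basement membrane proteins, 11 were called higher and 0 lower in WT MI against WT Sham (median 1.90) and 12 higher and 0 lower in the KO-labelled libraries against WT Sham (median 1.63), with 0 lower at an unadjusted p below 0.05 in limma. For all genes tested the shares were 27.7% (higher) and 9.39% (lower) in WT MI, and 34.8% and 14.3% in the KO-labelled libraries. *Mmp7* and *Elane* were not listed. The cathepsin *Ctsb* had 135 and 138 FPKM in the WT Sham libraries, 343 and 421 in the WT MI libraries and 653 and 481 in the KO-labelled libraries, and *Ctss* had 21.8 and 16.5, 180.4 and 203, and 431 and 301. Both were lowest in WT Sham and highest in the KO-labelled libraries, with no overlap. Over all genes tested, limma called 0.816% higher and 0.587% lower between the infarct groups. With an unadjusted p below 0.05 in limma these shares were 11.5% and 8.57%. There 0 proteases were higher and 2 lower (1 and 2 with quantile normalization or without the 100 most abundant genes), with 5 higher at an unadjusted p below 0.05 in limma (median 0.32). The lower genes were *Mmp9*, at 24.9 and 10.2 FPKM in WT MI against 3.26 and 2.94 in the KO-labelled libraries, and *Mmp3*, at 14.0 and 14.4 against 4.12 and 3.78. Their log2 fold changes were −2.05 and −1.62 (limma adjusted p = 0.045 and 0.017). The call of *Mmp9* was lost without WT Sham replicate 1 or 2 (−2.05 for both), WT MI replicate 1 (−1.44) or *Card9* KO MI replicate 1 or 2 (−2.11 and −2.00), and that of *Mmp3* without WT MI replicate 1 or 2 (−1.64 and −1.60) or *Card9* KO MI replicate 1 or 2 (−1.67 and −1.57).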
